A study of Mus musculus with 6 samples.

Results

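The promoters of 43 DNA repair genes were examined for CDK6 binding, out of 22028 protein-coding genes in the GENCODE M21 annotation of the mouse genome build mm10. The genes were chosen by their known roles: 14 act in homologous recombination, 10 in the Fanconi pathway, 3 in mismatch repair, 6 in nucleotide excision repair, 5 in base excision and single-strand break repair, and 5 in end joining. Promoter windows reached 2000 bp upstream and 200 bp downstream of every annotated transcript start of a gene. A gene was counted as bound in a library when at least 1 bp of a called peak fell inside such a window. All 43 genes were found in the annotation and all are accounted for here.

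The peaks came from chromatin immunoprecipitation sequencing (ChIP-seq) with an antibody against the HA tag. The cells were mouse lymphoid lines made from C57BL/6 bone marrow that lacked Cdk6 (Cdk6-/-) and were transformed with the p185 form of the BCR::ABL1 oncogene. They overexpressed HA-tagged CDK6 from a retroviral vector, either as wildtype protein (CDK6-WT) or as CDK6-K43M, in which the exchange of a lysine in the catalytic domain removes kinase activity. Each variant was measured in 2 libraries, and 2 input libraries named in the labels were not analysed here. No library of cells without an HA tag was used, so the level of binding in the absence of tagged CDK6 is unknown. The labels do not say whether the replicates came from separate cultures or separate cell lines, so differences between them may be technical or biological.

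CDK6 is best known as the partner of D-type cyclins that phosphorylates the retinoblastoma protein, and it also associates with chromatin although it has no DNA-binding domain. Homologous recombination repairs double-strand breaks by copying an intact template, the Fanconi proteins unhook DNA interstrand crosslinks, and end joining seals broken ends directly. Mismatch repair corrects replication errors, while the excision pathways cut out damaged bases or stretches of a damaged strand. Dividing lymphoid precursors also use end joining to complete the rearrangement of their antigen receptor genes.

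The 4 peak lists held 35189 and 34729 peaks for CDK6-WT replicates 1 and 2, and 39797 and 37304 peaks for CDK6-K43M replicates 1 and 2. Total read numbers are not in the lists, but the reads behind each peak summit could be worked back from the deposited values, and their median over a list ran from 15 to 23. Of 8 B-lineage marker genes, 7 had promoter peaks in at least 3 lists, and Rag1 did not. None of 8 markers of other lineages, such as Cd3e and Alb, had a promoter peak in any list. These are peaks and not RNA levels. In the text below, the strength of a peak is its percentile: the rank of its −log10 q value among all peaks of its own list, from 0 for the weakest to 100 for the strongest.

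Most repair gene promoters carried a CDK6 peak, and they did so with either variant. CDK6-WT was present at 42 of the 43 promoters in replicate 1 and at 34 in replicate 2, and CDK6-K43M at 43 and 33. Among all protein-coding genes the corresponding shares were 47.0%, 40.1%, 48.5% and 39.4%. A promoter peak in at least 3 of the 4 lists was found at 36 repair genes (83.7%), against 41.3% of all protein-coding genes. The study applied a limit of 3 lists to single genomic regions, whereas here peaks at any start of a gene were pooled. With 1 merged region required to hold the peaks, the count was 38. Peaks that touch were merged, so a region can include a peak that itself lies outside the window. This was so at Fancf and Ung, which were then included. The share of all protein-coding genes under this rule was not computed. In all 4 lists a peak was found at 31 repair genes (72.1%), against 33.2%. No repair gene had a peak in both lists of one variant and neither list of the other, which happened at 0.322% of all protein-coding genes.

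The mean number of bound repair genes was 38 ± 5.66 for CDK6-WT and 38 ± 7.07 for CDK6-K43M (SD, n = 2 each), a difference of 0 (exact two-sided permutation test, p = 1). With 2 libraries against 2 this test cannot give a p below 0.333. Within replicate 1 the CDK6-K43M list held 1 repair gene more than the CDK6-WT list, and within replicate 2 it held 1 fewer. The libraries split instead by replicate number, with a mean of 42.5 bound repair genes in the replicate 1 lists and 33.5 in the replicate 2 lists, a difference of 9. What the replicate number stands for is not given in the labels.

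**Figure D1:**
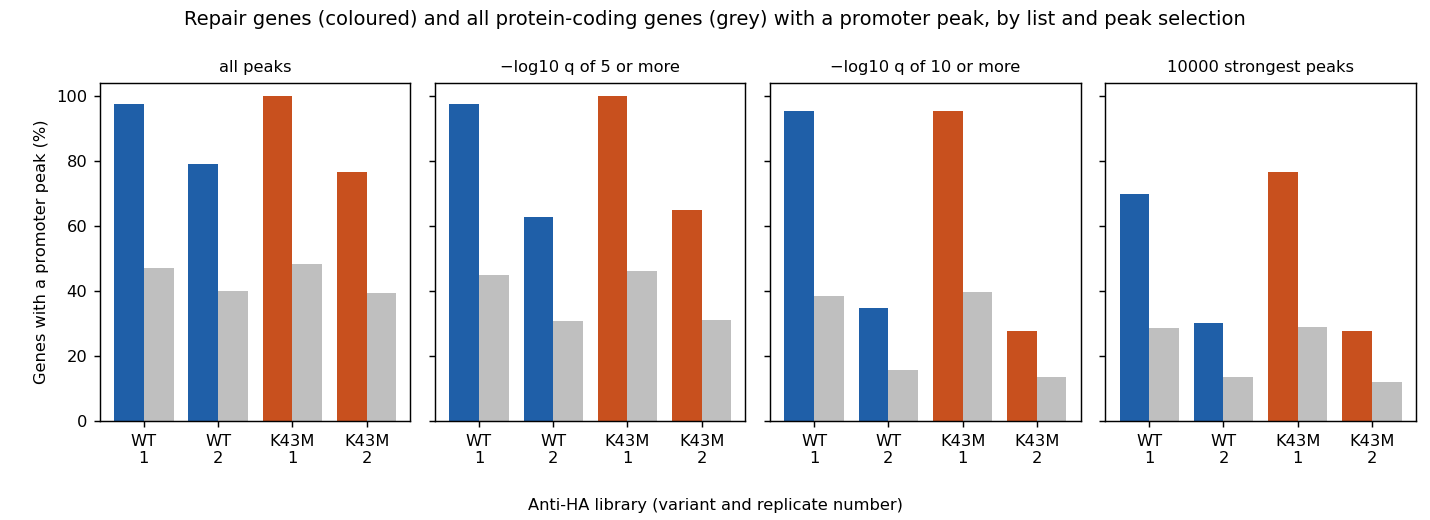
Share of genes with a promoter peak (y axis, percent) in each of the 4 libraries (x axis), for the 43 repair genes in blue (CDK6-WT) and orange (CDK6-K43M) and for 22028 protein-coding genes in grey. The panels keep all peaks, peaks with −log10 q of at least 5 or 10, or the 10000 strongest peaks of each list. In every panel the repair genes lie above all genes, and the replicate 1 libraries lie above the replicate 2 libraries of the same variant.

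The share of bound repair genes stayed above that of all genes when weak peaks were removed, but it was much lower in the replicate 2 lists. With −log10 q of at least 10, promoter peaks were kept at 41 repair genes in CDK6-WT replicate 1 and 41 in CDK6-K43M replicate 1, and at 15 and 12 in the replicate 2 lists. The shares of all protein-coding genes at this level were 38.6% and 39.9% in the replicate 1 lists and 15.8% and 13.7% in the replicate 2 lists. At this level 16 repair genes (37.2%) had a peak in at least 3 lists, against 17.4% of all protein-coding genes. Among the 10000 strongest peaks of each list, 12 repair genes (27.9%) met the same criterion, against 13.1%. The 8 genes with a peak in all 4 such lists (18.6%, against 5.98%) were Brca2, Palb2, Rad50, Rad52, Fancc, Fancd2, Parp1 and Xrcc6. At Fancc, Parp1 and Xrcc6 the strongest peaks of the lists lay at different transcript starts, and within 500 bp of the APPRIS principal start, the start of the main protein isoform, their percentiles in CDK6-K43M replicate 2 were 21.7, 67.7 and 58.4.

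The stretches below hold motifs centred within 100 bp of the summit of the strongest peak at repair gene promoters and are shown because they carry the sequence motifs counted later in the text. They were read from the mm10 genome on the strand of the gene, are free of annotated exons, and have the motif in capitals. The first 5 carry the NRF-1 motif, followed by the E2F motif of Bard1, the cyclic AMP response element (CRE) of Brca2, the NFY motif of Brca1 and the ETS motif of Ogg1.
Fanca, chr8:123318590-123318639, minus strand: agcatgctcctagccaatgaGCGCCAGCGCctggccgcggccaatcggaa
Fancl, chr11:26387414-26387463, plus strand: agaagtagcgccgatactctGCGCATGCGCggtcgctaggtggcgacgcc
Pms2, chr5:143909525-143909574, plus strand: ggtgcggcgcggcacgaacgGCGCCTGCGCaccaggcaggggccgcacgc
Ercc2, chr7:19381899-19381948, plus strand: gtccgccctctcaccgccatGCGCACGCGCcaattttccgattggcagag
Lig4, chr8:9976369-9976418, minus strand: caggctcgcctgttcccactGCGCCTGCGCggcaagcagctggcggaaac
Bard1, chr1:71103154-71103201, minus strand: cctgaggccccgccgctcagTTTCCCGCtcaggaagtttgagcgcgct
Brca2, chr5:150522581-150522628, plus strand: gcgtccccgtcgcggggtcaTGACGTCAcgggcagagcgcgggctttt
Brca1, chr11:101552015-101552061, minus strand: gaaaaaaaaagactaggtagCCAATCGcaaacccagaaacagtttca
Ogg1, chr6:113326829-113326876, plus strand: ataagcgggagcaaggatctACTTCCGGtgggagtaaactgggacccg

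Homologous recombination genes were bound at 12 of 14 promoters in at least 3 lists, and at 11 in all 4. Palb2, which bridges BRCA1 and BRCA2, had the highest mean percentile of the group, 94.3. It was at percentiles 99.5 and 88.5 with CDK6-WT and 99.4 and 90.02 with CDK6-K43M in replicates 1 and 2. In the 2 replicate 1 lists the Palb2 peak stood 21.9-fold and 21.7-fold over the local background, and in the replicate 2 lists 10.3-fold and 10.51-fold. All 4 summits of Palb2 lay within 18 bp of each other. The variants differed by 0.71 percentile points, less than the spread between replicates (CDK6-WT 94.0 ± 7.76, CDK6-K43M 94.7 ± 6.63).

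Rad52, which anneals single strands, reached percentiles of 98.7 and 87.5 with CDK6-WT and 97.1 and 89.8 with CDK6-K43M. Brca2, a tumour suppressor gene of this pathway, had 97.2 and 92.3 with CDK6-WT and 97.2 and 86.2 with CDK6-K43M. In both genes the replicate 1 values lay above the replicate 2 values and the variants overlapped. The difference between CDK6-K43M and CDK6-WT was 0.32 percentile points for Rad52 and −3.01 for Brca2 (exact two-sided permutation test, n = 2 each, p = 1 for either gene).

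The other members of this pathway present in all 4 lists were Brca1, its ubiquitin ligase partner Bard1, the nuclease complex genes Mre11a, Rad50 and Nbn, the recombination genes Rad51c and Xrcc2, and the translocase gene Rad54l. Their mean percentiles ran from 59.95 for Rad51c to 85.1 for Rad50. The spread over the lists was wide at some of them. Nbn, for example, was at 80.7 and 70.2 with CDK6-WT and at 94.8 and 1.26 with CDK6-K43M, where the last value rested on 11 reads at the summit. Bard1 was at 96.9 and 77.8 with CDK6-WT and at 96.2 and 16.2 with CDK6-K43M, the last on 10 reads.

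The 3 members of the pathway that lacked a peak in at least 1 list were Rad51b, Rad51d and Xrcc3. Rad51d had no peak in CDK6-WT replicate 2 and was at percentile 16.2 in CDK6-K43M replicate 2. Rad51b had peaks at 57.4 with CDK6-WT and 78.3 with CDK6-K43M in replicate 1, and none in either replicate 2 list. Xrcc3 had a peak in CDK6-K43M replicate 1 alone, at percentile 45.4 with 19 reads at its summit. The nearest peaks of the other lists lay 38136 to 41182 bp from a start of the gene.

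Fanconi genes were bound at 7 of 10 promoters in at least 3 lists, at 10 in each replicate 1 list and at 6 in each replicate 2 list. Fancd2, which together with FANCI forms the clamp that is ubiquitinated at a crosslink, was at percentiles 94.5 and 83.9 with CDK6-WT and 98.6 and 89.5 with CDK6-K43M. Its 4 summits lay within 23 bp. Within either replicate number the CDK6-K43M value was higher, by 4.13 and 5.65 percentile points, but the variants overlapped (p = 0.667, exact two-sided permutation test, n = 2 each).

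Fancc and Fance encode subunits of the Fanconi core complex, the ubiquitin ligase of the pathway. The Fancc values were 91.2 and 89.7 with CDK6-WT and 91.6 and 94.6 with CDK6-K43M. The Fance values were 62.3 and 62.7 with CDK6-WT and 65.8 and 86.8 with CDK6-K43M. At both genes CDK6-K43M lay above CDK6-WT in all comparisons, but the strongest peaks of the lists were not at the same place. At Fance the replicate 1 summits were at −75 and −105 bp from a transcript start, where negative is upstream, and the replicate 2 summits at −1578 and −1586 bp. At Fancc the summits of the lists lay up to 20721 bp apart, at different transcript starts.

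A further region upstream of Fance, chr17:28312765-28313088, was called in either replicate of CDK6-K43M and in no library of CDK6-WT. It was the only region of this kind in the promoter windows of the repair genes. Among all protein-coding genes, 0.713% had a region found with CDK6-K43M alone in a promoter window, and 0.222% had one found with CDK6-WT alone.

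Fancb is the core complex gene on the X chromosome. It was at percentiles 52.6 and 77.8 with CDK6-WT and at 55.2 and 79.7 with CDK6-K43M, and was the only one of the 31 genes bound in all lists whose replicate 2 values both lay above its replicate 1 values. Such an order was found at 10.1% of all protein-coding genes bound in all 4 lists. By the mean of the 2 variants, replicate 2 was also above replicate 1 at Fance, Ercc4 and Fancc. Fanci was at 74.4 and 43.9 with CDK6-WT and 75.3 and 44.9 with CDK6-K43M. Fanca had no peak in CDK6-WT replicate 2, and Fancl, the catalytic subunit of the ligase, had none in CDK6-K43M replicate 2. Every peak of Fancl lay at a start other than its APPRIS principal one.

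Fancf, Fancg and Fancm had peaks in the replicate 1 lists and in neither replicate 2 list. Fancf, an adaptor of the core complex, was among the strongest promoters of its lists, at percentiles 94.6 with CDK6-WT and 96.2 with CDK6-K43M. In CDK6-K43M replicate 2 a peak at percentile 26.4 lay 324 bp from the Fancf start, just outside the window. In CDK6-WT replicate 2 the nearest peak was 17208 bp from that start. Fancg, another core subunit, was at 51.6 and 56.5, and Fancm, the translocase that recruits the complex, at 71.3 and 84.7. The Fancm summits lay at −1602 bp with CDK6-WT and −1549 bp with CDK6-K43M, and a strongest Fancm peak also fell in the promoter window of Fkbp3. Within 500 bp of its APPRIS principal start Fancm was at 54.4 with CDK6-WT and 53.4 with CDK6-K43M.

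All 3 mismatch repair genes had a promoter peak in all 4 lists. Msh6, which takes part in recognising single mismatches, was the strongest, at percentiles 96.96 and 53.6 with CDK6-WT and 94.1 and 61.2 with CDK6-K43M. Its summits lay at −253 to −304 bp from the start. Msh3, which acts on larger loops, varied from 7.80 to 93.0 over the lists. Pms2, which encodes an endonuclease, is described with the variant differences below.

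Nucleotide excision genes were bound at 5 of 6 promoters in at least 3 lists. Xpc, which detects distorted helices, was at percentiles 97.4 and 66.4 with CDK6-WT and 93.7 and 61.9 with CDK6-K43M. Ercc4, the catalytic subunit of the nuclease that cuts on the 5′ side of the lesion, was at 65.4 and 87.1 with CDK6-WT and at 52.3 and 52.0 with CDK6-K43M. Ercc3, a helicase subunit of the general transcription factor TFIIH, was at 27.5 and 69.2 with CDK6-WT and at 77.1 and 16.2 with CDK6-K43M. The values of Xpc split by replicate number, those of Ercc4 by variant, and those of Ercc3 by neither. At Ercc4 the strongest peak of CDK6-K43M replicate 1 did not overlap those of the other lists, and the summits lay up to 614 bp apart.

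Ercc1, the partner of ERCC4 in the nuclease, had peaks at 91.3 with CDK6-WT and 91.0 with CDK6-K43M in replicate 1 and none in replicate 2, where the nearest peaks lay 5328 and 5337 bp away. Ercc2, the second TFIIH helicase gene, and Xpa, the damage verification factor, each lacked a peak only in CDK6-K43M replicate 2.

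In base excision and single-strand break repair, 4 of 5 promoters were bound in all 4 lists. Parp1, the sensor of strand breaks, was at percentiles 88.7 and 75.8 with CDK6-WT and 91.7 and 87.5 with CDK6-K43M. Ogg1, the glycosylase for oxidised guanine, was at 96.4 and 59.2 with CDK6-WT and 95.0 and 80.3 with CDK6-K43M. Xrcc1, the scaffold for strand break repair, was at 89.6 and 71.4 with CDK6-WT and 88.1 and 36.2 with CDK6-K43M. In each of these genes the replicate 1 values were the higher ones, and the variant differences of 7.33, 9.85 and −18.3 percentile points were within the range of the replicates (exact two-sided permutation test, n = 2 each, p from 0.667 to 1). At Parp1 and Xrcc1 the strongest peaks lay at different starts, with summits up to 19171 and 24121 bp apart. Within 500 bp of the principal start Parp1 was at 79.6 and 75.8 with CDK6-WT and 91.7 and 67.7 with CDK6-K43M. Xrcc1 was there at 83.4 and 71.4 with CDK6-WT and 85.1 and 31.3 with CDK6-K43M.

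Ung, the uracil glycosylase, had peaks at 76.1 with CDK6-WT and 63.4 with CDK6-K43M in replicate 1 alone. The CDK6-WT summit lay at −2126 bp, outside the window, and a strongest Ung peak also fell in the promoter window of Alkbh2. Within 500 bp of the principal start Ung was at 62.3 with CDK6-WT and 63.4 with CDK6-K43M. With 1 merged region required, Ung and Fancf counted as bound in at least 3 lists. In CDK6-K43M replicate 2 the nearest peak was 2072 bp from an Ung start and outside the windows. The ligase gene Lig3 was bound in all lists, at percentiles from 36.2 to 77.6.

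All 5 end joining genes were bound in all 4 lists. Xrcc6, which encodes the Ku70 subunit of the ring that holds broken ends, had the highest mean percentile of the 31 repair genes bound in all lists, 95.1. It stood at 96.5 and 93.5 with CDK6-WT and at 98.6 and 91.7 with CDK6-K43M, and the variants differed by 0.14 percentile points (p = 1, exact two-sided permutation test, n = 2 each). Its strongest peaks lay at different starts, 11416 bp apart at most. Within 500 bp of the principal start Xrcc6 was at 96.5 and 83.0 with CDK6-WT and at 92.2 and 58.4 with CDK6-K43M.

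Lig4, the ligase of this pathway, was at 97.4 and 36.3 with CDK6-WT and at 99.8 and 52.0 with CDK6-K43M, which made it the strongest repair gene of CDK6-K43M replicate 1, 23.2-fold over background with 86 reads at the summit. Its scaffold partner Xrcc4 was at 90.3 and 50.1 with CDK6-WT and at 91.6 and 36.2 with CDK6-K43M. Both genes had higher values in replicate 1 than in replicate 2. Xrcc5, the Ku80 gene, and Prkdc, the gene of the DNA-dependent kinase, ran from 11.98 to 86.2 and from 36.2 to 80.7.

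**Figure D2:**
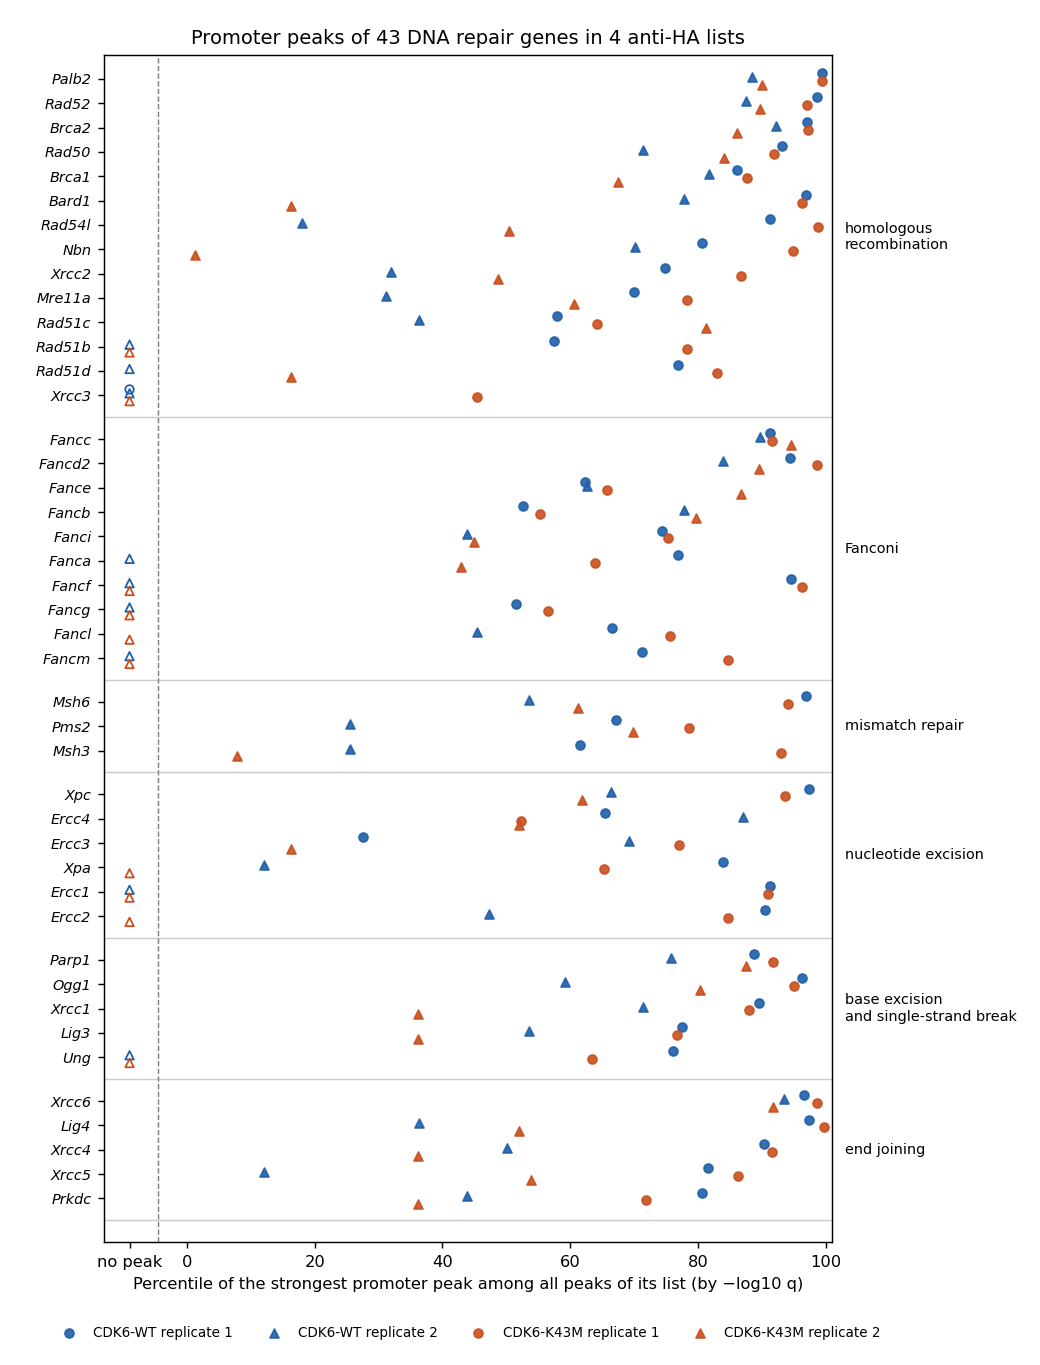
Percentile of the strongest promoter peak among all peaks of its list (x axis, ranked by −log10 q) for each of the 43 repair genes (y axis), grouped by pathway. Blue is CDK6-WT, orange is CDK6-K43M, circles are replicate 1, triangles are replicate 2, and open symbols at the left mark lists without a promoter peak. The triangles spread further to the left than the circles, and the only open circle is that of Xrcc3 in CDK6-WT replicate 1.

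As a group, the bound repair genes were only a little stronger than other bound promoters. Their median percentile was 82.7 in CDK6-WT replicate 1, where the median over all protein-coding genes with a promoter peak was 78.9, and 86.7 in CDK6-K43M replicate 1, against 80.4. In the replicate 2 lists the medians were 61.0 against 59.6 for CDK6-WT and 60.5 against 58.4 for CDK6-K43M. The median fold over background of the repair genes was 11.3, 6.51, 11.2 and 6.003 in CDK6-WT replicates 1 and 2 and CDK6-K43M replicates 1 and 2, against 10.0, 6.42, 10.2 and 6.04 over all genes. In CDK6-K43M replicate 2 the repair genes were slightly below.

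The difference between the variants, CDK6-K43M minus CDK6-WT, ran from −31.1 percentile points at Bard1 to 27.9 at Pms2. With n = 2 each, the test cannot separate such differences from the spread between replicates. Full separation of the variants was rare among the 31 repair genes bound in all lists. Both CDK6-K43M values lay above both CDK6-WT values at 4 of them (12.9%), against 6.76% of all protein-coding genes bound in all lists. The reverse order was found at 1 of them, Ercc4 (3.23%), against 3.61%. These 5 genes were picked out after their values were seen. The 4 genes higher with CDK6-K43M were Fancc and Fance, described above, Rad51c and Pms2.

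Rad51c was at percentiles 58.0 and 36.3 with CDK6-WT and at 64.3 and 81.3 with CDK6-K43M, a difference of 25.7 percentile points. Pms2 was at 67.2 and 25.5 with CDK6-WT and at 78.6 and 69.9 with CDK6-K43M, a difference of 27.9. The replicate 2 values rested on few summit reads, 14 with CDK6-WT and 21 with CDK6-K43M at Rad51c, and 13 and 18 at Pms2. Ercc4 differed by −24.2. For each of these genes, and for Fancc and Fance with differences of 2.66 and 13.8, the exact two-sided permutation test gave p = 0.333, the smallest value it allows with n = 2 each. None of these differences can therefore pass a threshold of 0.05.

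Restricting the peaks to within 500 bp of an APPRIS principal start was a choice made after seeing the data. It removed the order at Fancc and Fance. At Rad51c, Pms2 and Ercc4 it kept the same percentiles in every list, so it could not change their order and is no check of it. At the principal start Fancc was at 91.2 and 77.8 with CDK6-WT and 91.6 and 21.7 with CDK6-K43M. Fance was at 62.3 and 7.61 with CDK6-WT and 65.8 and 29.4 with CDK6-K43M. Of the 31 repair genes with peaks near a principal start in all lists, 2 (6.45%) were then higher with CDK6-K43M, against 6.80% of all protein-coding genes treated the same way.

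Within replicate numbers, the sign of the variant difference was the same in both pairs at 19 of the 31 genes. At 13 (41.9%) CDK6-K43M was higher in both pairs, against 29.1% of all protein-coding genes bound in all lists, and at 6 (19.4%) it was lower in both, against 21.8%. The median difference over the 31 genes was 1.59 percentile points in replicate 1 and 1.83 in replicate 2. Over all genes the medians were 1.09 and −0.15. At Nbn, Msh3 and Ercc3 the pairs pointed in opposite directions by more than 10 percentile points each.

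**Figure D3:**
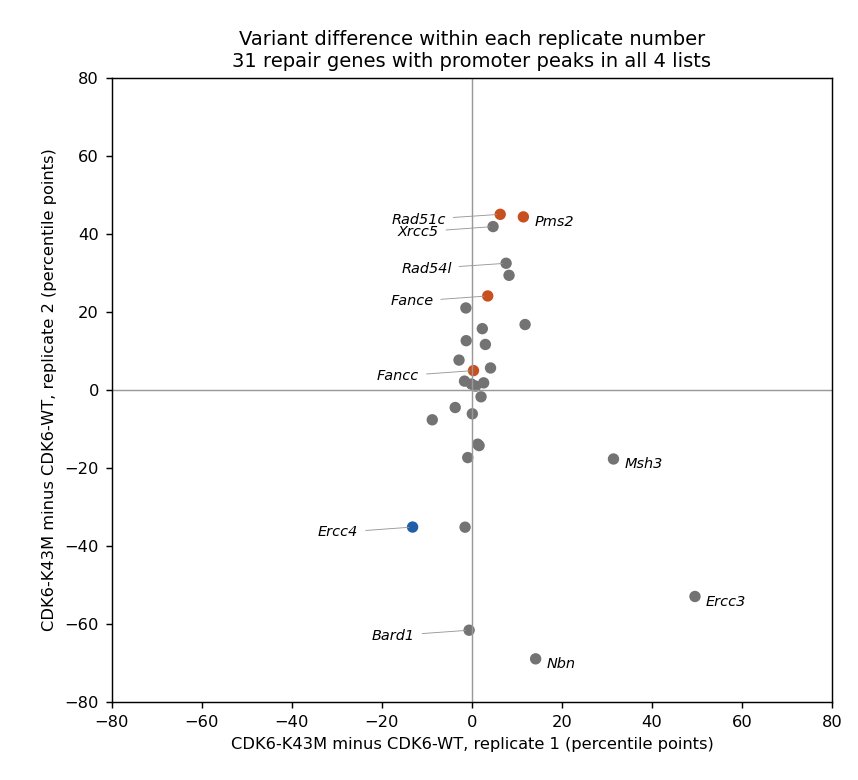
Difference in percentile of the strongest promoter peak, CDK6-K43M minus CDK6-WT, within replicate 1 (x axis) and within replicate 2 (y axis) for the 31 repair genes bound in all 4 lists, 1 point per gene. Orange marks the 4 genes at which both CDK6-K43M values were above both CDK6-WT values, and blue marks Ercc4, the only gene in the reverse order. The points spread further along the replicate 2 axis, where Nbn lies at −68.9 and Rad51c at 45.0.

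The replicate number separated the libraries far more than the variant. Of the 31 genes, 24 (77.4%) had both replicate 1 percentiles above both replicate 2 percentiles, against 69.4% of all protein-coding genes bound in all lists. The median difference between the numbers was 25.9 percentile points for the repair genes and 20.8 for all genes. The 6 genes with peaks in both replicate 1 lists and neither replicate 2 list were Rad51b, Fancf, Fancg, Fancm, Ercc1 and Ung. They were 14.0% of the repair genes, against 5.68% of all protein-coding genes and 10.97% of those with a promoter peak in at least 1 list.

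Chromosome 12 stood apart in the replicate 2 lists. Its peaks numbered 1473 and 1680 in replicate 1 of CDK6-WT and CDK6-K43M, and 833 and 904 in replicate 2. The share of its protein-coding genes with a promoter peak was 55.1% and 57.2% in replicate 1 and 28.6% and 29.9% in replicate 2. The replicate 2 share relative to that of replicate 1 was 0.52 on this chromosome, the lowest among the chromosomes that carry one of the 43 genes, with 0.59 on X and 0.67 on chromosome 8 next among them. The 3 repair genes on this chromosome, Rad51b, Xrcc3 and Fancm, were all without a peak in replicate 2, and the part of the chromosome in their absence was not tested. Without these 3 genes, the 36 genes bound in at least 3 lists remained, and the difference between replicate numbers was 6.5 genes.

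Summits sat close to transcript starts. At the 36 repair genes bound in at least 3 lists, the summit of the strongest peak lay a median of 50 bp from the nearest start of the gene, against 66 bp at all protein-coding genes bound in as many lists. It was within 100 bp at 26 genes (72.2%), against 62.6%, and upstream of the start at 27 (75%), against 73.2%. Among the 31 genes bound in all lists, the strongest summits of the 4 lists fell within 100 bp of each other at 13. The median distance between the outermost of the 4 summits was 229 bp at these genes, against 130 bp at all protein-coding genes bound in all lists. The summits were more than 1000 bp apart at 6 of the repair genes: Fancc, Fance, Parp1, Xrcc1, Xrcc6 and Lig4. Shares of all protein-coding genes within these limits of 100 and 1000 bp were not computed.

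**Figure D4:**
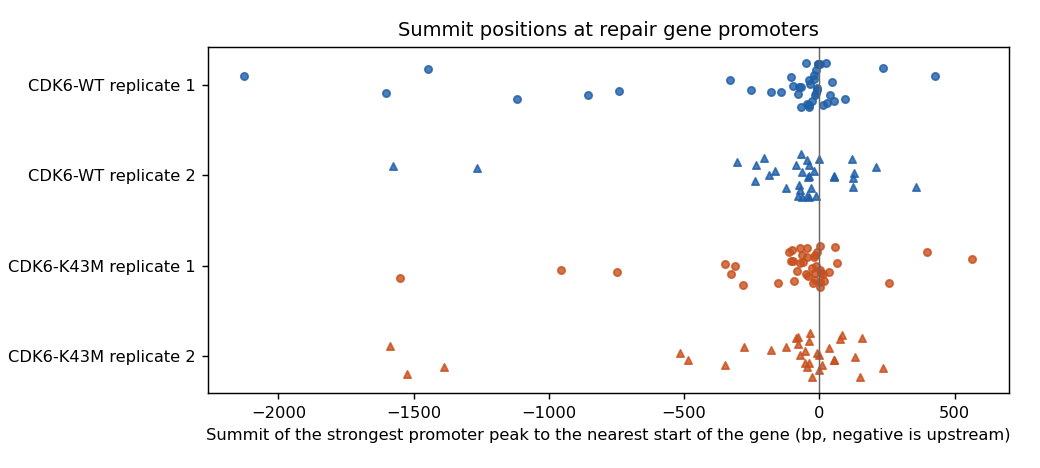
Distance in bp from the nearest transcript start of the gene to the summit of its strongest promoter peak (x axis, negative is upstream) in each of the 4 lists (y axis), 1 point per bound repair gene. The vertical spread within a list has no meaning. Most points crowd around 0, and the few far upstream include Ung at −2126 bp in CDK6-WT replicate 1 and Fance at −1586 bp in CDK6-K43M replicate 2.

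Many repair genes share their promoter with a neighbour. A protein-coding start on the opposite strand lay upstream within 1000 bp at 15 of the 43 genes (34.9%), against 9.80% of all protein-coding genes. Xpc lay 40 bp from Lsm3, Fancd2 30 bp from Emc3, Lig4 21 bp from Abhd13, Xrcc4 41 bp from Tmem167, Palb2 95 bp from Dctn5, Brca1 270 bp from Nbr1 and Prkdc 489 bp from Mcm4. A peak in such a window cannot be assigned to one gene of the pair. Of the 15 genes, 13 (86.7%) were bound in at least 3 lists, against 81.7% of all genes with such a neighbour. Of the 28 repair genes without one, 23 (82.1%) were bound, against 36.9%.

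CpG-rich starts were also common among the repair genes. A protein-coding start whose 250 bases before to 50 after had at least 55% GC and a CpG observed to expected ratio of at least 0.6 was present at 33 genes (76.7%), against 48.1% of all protein-coding genes. Of these 33, 26 (78.8%) were bound in at least 3 lists, against 66.3% of all genes of that kind. All 10 repair genes without such a start, among them Bard1, Nbn, Fancb, Ercc3 and Ercc4, were bound in at least 3 lists, against 18.3% of all genes of that kind.

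Motifs were counted on either strand within 100 bp of the strongest summit, as written below, at the 36 repair genes and at 9099 protein-coding genes bound in at least 3 lists. NRF-1, a regulator of nuclear genes for mitochondria, has a palindromic site written as GCGCNNGCGC. It occurred at 10 repair genes (27.8%), namely Palb2, Xrcc2, Fanca, Fancl, Msh3, Pms2, Ercc2, Lig3, Prkdc and Lig4, against 14.98% of all genes. In windows 1000 bp to either side of the summit its share was 0% for the repair genes and 0.46% for all genes. The stretch of Lig4 shown above has this motif 1 bp from the summit of CDK6-K43M replicate 1.

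E2F, the factor family released from the retinoblastoma protein in the cell cycle, was searched as TTTCCCGC, TTTCGCGC, TTTGCCGC or TTTGGCGC. One of these stood at 4 repair genes (11.1%), Bard1, Fancb, Fancd2 and Xrcc2, against 3.68% of all genes. With 4 genes this share rests on few promoters.

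Other promoter motifs were near or below the share in all genes. The ETS motif CCGGAAGT occurred at 4 repair genes (11.1%), against 9.61%, and the SP1 motif GGGGCGGGG at 5 (13.9%), against 13.4%. The NFY motif, searched as CCAAT followed by C or G and then by A or G, occurred at 3 (8.33%), against 14.8%. The CRE motif TGACGTCA was found at Brca2 alone (2.78%), against 3.08%, and the RUNX motif TGTGGT at 5 (13.9%), against 9.84%, a share that was 18.1% in the flanking windows of the repair genes. The YY1 motif AANATGGCG and the GFY motif ACTACAATT were in none of the 36 windows, against 5.29% and 0.802%. None of the motifs searched was present at 15 repair genes (41.7%), against 43.6%.

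**Figure D5:**
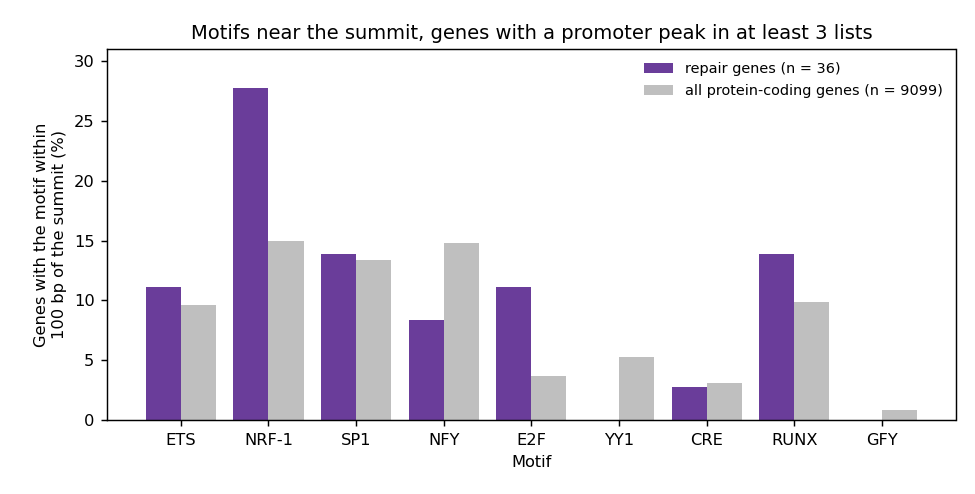
Share of genes (y axis, percent) with each of 9 motifs (x axis) within 100 bp of the strongest summit, for 36 repair genes (purple) and 9099 protein-coding genes (grey) with a promoter peak in at least 3 lists. NRF-1 is the most common motif at the repair genes, 27.8% against 14.98%, and YY1 and GFY have no purple bar.

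Base composition at the summits was similar. The median GC content of the 201 bases around the strongest summit was 62.2% at the 36 repair genes and 64.2% at all genes bound in at least 3 lists. The median CpG observed to expected ratio was 0.89 and 0.85.

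A second list of 86 repair genes outside the 43 gave like counts. It had promoter peaks at 83 and 72 genes with CDK6-WT and at 83 and 68 with CDK6-K43M, and 76 of the 86 (88.4%) were bound in at least 3 lists. The 10 genes that were not bound in 3 lists included the helicase genes Wrn and Brip1, the polymerase gene Polb and the glycosylase genes Neil2, Neil3 and Mpg.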

How the data were processed

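Peaks were taken as deposited, 1 list per anti-HA library. The authors checked reads with FastQC (0.11.5), trimmed them with Trimmomatic (0.36), mapped them to mm10 with BWA (0.7.15), filtered with SAMtools (1.3.1) and bedtools, and called peaks in each library with MACS2 (2.1.0). The deposited columns, in narrowPeak format, hold a score, the fold enrichment at the summit, its −log10 p-value and −log10 q-value, and the offset of the summit, a distance in bp. Here peaks were ranked by −log10 q within their list. Summit reads were worked back from fold and −log10 p. At 100% of the peaks this gave whole reads within 0.02, which was tested on simulated data. Such counts cover reads at the summit only, and total depth is unknown.

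Overlaps, ranks and sequences were computed with Python 3.11.15, pandas 2.3.3, scipy 1.17.1 and pysam 0.24.0, with GENCODE M21 transcripts. Groups came from the labels. Variants were compared by a permutation test, exact and two-sided, with 6 possible assignments of the 4 libraries. Other comparisons are counts beside the same counts over all protein-coding genes. The members and lists were chosen with earlier results of these data known. Genes were named by rule: the 3 with the highest mean percentile in each pathway among those bound in all lists (1 in mismatch repair) and all genes bound in 2 or fewer lists. Other genes given with values, such as Nbn, Bard1, Fancb, Fanci, Lig3, Rad51c and Pms2, were chosen after their values were seen. Alternatives changed the q limit, list length, window, starts, summit rule, region rule and libraries used. The input libraries were not analysed here.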

Additional observations from a re-analysis of the deposited data

How the results depend on the processing

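The number of repair genes bound in at least 3 lists (36) ranged from 33 to 38 under other windows, starts, list lengths, summit and region rules and −log10 q of at least 5, and was 16 with −log10 q of at least 10 and 12 with the 10000 strongest peaks per list. When one library was left out and a peak was required in the 3 others, it was 31 to 34. The difference between variants in bound genes (0) lay between −1.5 and 1 and never passed the test, and without one library it was −5 to 5. As a replicate block, with the libraries paired by number, it was 0 (exact sign-flip test, p = 1; the smallest p possible is 0.5). The labels do not say that the number marks a shared culture or day, and 2 pairs cannot establish a pairing. The block changed no call. The difference between replicate numbers (9) was 15 with −log10 q of at least 5, 27.5 with at least 10 and 19 with the 10000 strongest peaks, and without one library it was 8.5 to 9.5. The count of genes unique to a variant (0) became 1 with −log10 q of at least 10 (Ercc4, CDK6-WT) and 1 when a single merged region had to hold the peaks (Fance, CDK6-K43M), and 0 to 3 without one library, where a variant with 1 list left needs no replicate. The mean of the median percentiles (72.7) ran from 68.1 to 88.4 over the 14 alternatives. All lay within the replicate spread of 16.9 points, but so wide a limit can hardly detect a change. Percentiles were still taken from the full lists when weak peaks were removed, which raises the median by construction. Ranked by fold, the variant difference of Ercc3 changed from −1.71 to 6.38 and that of Xrcc6 from 0.14 to −1.26 percentile points. The 2 libraries per variant, weak peaks near 10 reads in the replicate 2 lists and the lack of total read numbers limit all comparisons.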
